A study of Mus musculus with 6 samples.

Results

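Basal p53 binding, meaning the sites recovered by p53 ChIP-seq without irradiation, was compared between splenic B cells and non-B cells. The comparison used all peaks of the B cells mock list (1413) and of the non-B cells mock list (712), together 2125 of the 48115 peaks in the 5 lists of the series. Both groups were Trp53+/+ C57/Bl6 mice of 8 weeks that had not been irradiated. B cells were the spleen cells retained by beads against the surface marker B220, and non-B cells were what flowed through the same column, so the second group is a mixture of T cells and other cell types. Chromatin was pooled over animals, and each group had 1 library. Further lists came from Trp53+/+ B and non-B cells of the same age, 4 h after 7 Gy of whole-body irradiation (IR), and from total spleen of irradiated Trp53-/- C57/Bl6 mice, whose age the labels do not give. A peak counted as shared when it overlapped a peak of the other mock list by at least 1 bp. Peak lists hold no expression values, so the cell labels could not be checked against marker levels.

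p53 is a transcription factor that is kept scarce in unstressed cells, mainly by Mdm2, and accumulates after DNA damage. It binds as a tetramer to a response element made of a pair of 10-base units, each with a C and a G at fixed positions, and activates genes for cell cycle arrest, apoptosis, repair and its own negative feedback. Lymphocytes are among the cells most prone to p53-dependent death after irradiation.

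The response elements found under peaks of both compartments are shown first, because they mark the sites to which most of the comparison below refers. Each run gives 60 bases of the mm9 reference, plus strand, with the 20-base element in capitals. The element was searched as 2 abutting decamers NNNCNNGNNN that match the p53 consensus with at most 3 mismatches, and the consensus reads the same on both strands. Ier5, Dyrk3 and Zmat3 had no mismatch, and the other 7 had 1 mismatch.
Ier5, chr1:156903434-156903493: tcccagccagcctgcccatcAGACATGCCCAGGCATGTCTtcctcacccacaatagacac
Dyrk3, chr1:133035924-133035983: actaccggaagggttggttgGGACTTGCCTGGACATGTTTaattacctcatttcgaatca
Zmat3, chr3:32263233-32263292: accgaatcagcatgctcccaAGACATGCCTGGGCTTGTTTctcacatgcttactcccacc
Cdkn1a start site, chr17:29227853-29227912: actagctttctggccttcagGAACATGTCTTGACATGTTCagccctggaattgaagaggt
Cdkn1a upstream, chr17:29215964-29216023: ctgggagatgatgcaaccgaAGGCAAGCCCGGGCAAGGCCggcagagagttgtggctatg
Mdm2 upstream, chr10:117154772-117154831: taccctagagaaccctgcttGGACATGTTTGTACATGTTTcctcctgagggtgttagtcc
Ccng1, chr11:40568944-40569003: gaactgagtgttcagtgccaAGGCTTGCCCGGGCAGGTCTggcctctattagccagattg
Psrc1, chr3:108187554-108187613: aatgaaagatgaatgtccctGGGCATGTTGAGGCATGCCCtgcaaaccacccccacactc
Bcl2l11, chr2:127959811-127959870: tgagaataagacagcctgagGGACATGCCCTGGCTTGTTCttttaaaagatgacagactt
Tnfsf8, chr4:63503347-63503406: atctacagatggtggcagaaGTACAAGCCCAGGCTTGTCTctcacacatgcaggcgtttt

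Elements were also present under peaks found in 1 compartment alone, and 3 of them are shown for contrast. Mdm4 and Ugt2b34 had a peak in B cells only, and the site nearest to Rpl7a-ps3 had a peak in non-B cells only. The element of Mdm4 had 1 mismatch, and the other pair had none.
Mdm4, chr1:134916862-134916921: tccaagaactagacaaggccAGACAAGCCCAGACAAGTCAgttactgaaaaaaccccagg
Ugt2b34, chr5:87285528-87285587: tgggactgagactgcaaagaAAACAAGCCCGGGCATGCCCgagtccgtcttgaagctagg
Rpl7a-ps3, chr15:36319707-36319766: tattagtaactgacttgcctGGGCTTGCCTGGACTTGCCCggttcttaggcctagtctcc

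The deposited value of a peak, a −log10 p-value of the peak caller, rises with read depth. Strength was therefore compared between lists by the percentile within each list, where 100 is the strongest peak. Values printed side by side, and bands of value, describe each list and do not measure a difference between compartments. The B list was 1.99 times as long as the non-B list. Read totals are unknown, so absence of a peak does not show absence of binding. Binding per cell, and the number of cells that carry it, cannot be told apart in pooled chromatin. Some mock sites were also recovered from Trp53-/- spleen, that is, without p53. They comprised 14 B peaks and 13 non-B peaks, among them those nearest to Pgk2, Axin2, Cdk8, Pxmp3, Samd9l, Kpna1, Gm6020, Hic2 and Pgk1. All of them were shared, against 0 of 971 unshared B peaks (exact Clopper-Pearson 95% interval 0 to 0.379%) and 0 of 234 unshared non-B peaks (0 to 1.56%). They were left out of the sites named below, except where Pgk1 is described.

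The strongest basal sites were common to both compartments. Weak peaks were less often shared in both lists, with the lowest shares in the longer B list. Of the B peaks, 442 were shared with non-B cells and 971 were not. Of the non-B peaks, 478 were shared and 234 were not. With the B list reduced to its 712 strongest peaks, 51.1% of B and 56.2% of non-B peaks were shared. Sharing rose with the deposited value in B cells, from 10.3% of peaks below 8 (95% Wilson interval 7.80 to 13.5%, covering counting error only) through 19.9% between 8 and 12 and 51.4% between 12 and 20 to 94.5% at 20 and above (90.1 to 96.97%). In non-B cells the same bands gave 43.6% (35.9 to 51.7%), 55.8, 79.9 and 97.3% (93.2 to 98.9%). At a value of 20 or more, 10 B peaks and 4 non-B peaks were unshared. Shared peaks were also wider, with a median of 191.5 bp against 81 bp in B cells and 119 bp against 72.5 bp in non-B cells. Part of the unshared peaks lay next to a peak of the other list without touching it, since 122 of 971 in B cells (12.6%) and 58 of 234 in non-B cells (24.8%) had one within 500 bp.

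**Figure D1:**
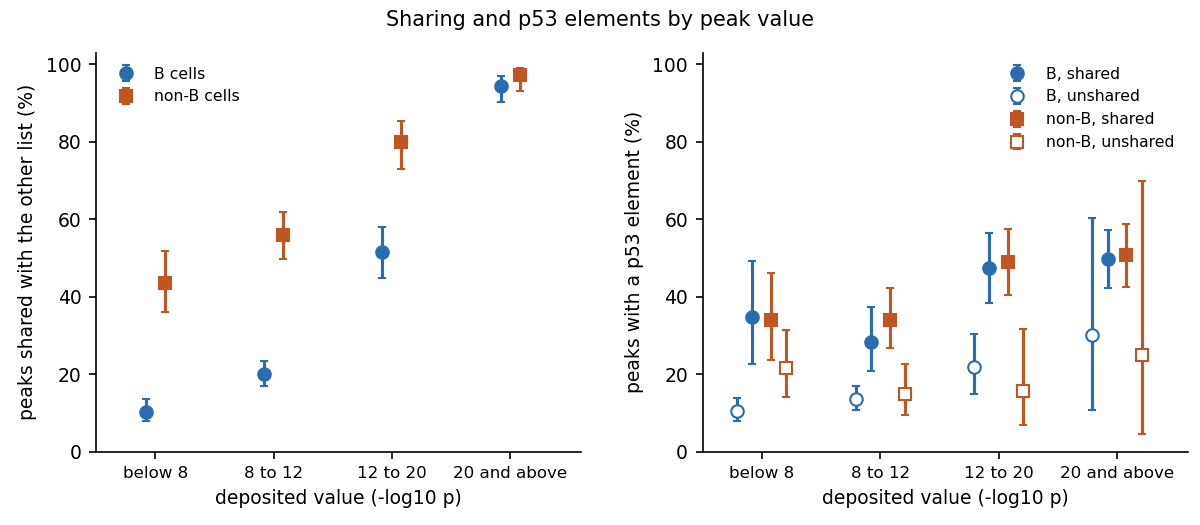
Left, percent of mock peaks shared with the other mock list, by deposited value (−log10 p) on the horizontal axis. Right, percent of shared (filled) and unshared (open) peaks with a p53 response element in the same bands. Circles are B cells, squares are non-B cells, and bars are 95% Wilson intervals. Sharing climbs from 10.3 to 94.5% in B cells and from 43.6 to 97.3% in non-B cells, and the shared point lies above the unshared one of the same cells in every band.

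The site with the highest rank in both lists lay upstream of Bbc3, which encodes the apoptosis inducer Puma. Its peak had a value of 167.4 in B and 164.8 in non-B cells. Ier5, an immediate early response gene, followed with 158.4 and 154 at a site 43529 bp downstream of its start, the site of the first element shown above. The region of Ier5 held 12 B peaks and 6 non-B peaks, and no other gene had as many in the B list.

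Among the 15 pairs with the highest mean percentile were sites at Klhdc4, Mtmr10, Aff1, Sp1, Myo1g, Rhoq, Zfp958, Elmo1, Pnrc1, Dyrk3, Exoc4, Dnm3 and Scd3. Aff1, a component of elongation complexes, had 142.6 in B and 127.7 in non-B cells at an intronic site. Sp1, a GC box-binding transcription factor, had 121.2 and 128.7 at a site 343 bp upstream of its start. Dyrk3, a protein kinase, had 96.8 and 92.2 at a site 1128 bp upstream. All 3 sites stood near the top of both lists, with percentiles of 99.82 and 99.23 for Aff1, 99.54 and 99.44 for Sp1, and 99.12 and 98.24 for Dyrk3. Pnrc1, a nuclear receptor coactivator, was the pair of this group with the least even values, 70.5 in B and 127.2 in non-B cells, which still gave percentiles of 98.41 and 99.09.

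Across all 431 mutual-best pairs (each peak the best overlap of the other), the ranks were similar but not equal. Spearman's rho was 0.724 over these pairs, a description across peaks that share their libraries. The median difference in percentile, re-ranked within the pairs, was 11.02 points, and 198 pairs (45.9%) lay within 10 points. Of the 50 strongest B peaks, 40 were paired with one of the 50 strongest non-B peaks. In 71 pairs the difference exceeded 30 points, 39 of them with the higher rank in B cells and 32 with the higher rank in non-B cells.

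The pairs with the largest difference in favour of B cells lay at Hbb-b2, Cd244, Rasl10a and Tmco7. The peak upstream of Hbb-b2, a beta globin gene, had 32.8 in the B list and 6.95 in the non-B list. At Tmco7 the B peak of 21.6 covered 2 separate non-B peaks, of 10.8 and 6.95. The site 8399 bp upstream of Cd244, which encodes a receptor of natural killer cells, had 24.6 and 5.08, percentiles of 91.3 and 0.281. After irradiation the Cd244 site had values of 137.2 in B and 191.7 in non-B cells, whereas Hbb-b2 was absent from the irradiated non-B list and Rasl10a from the irradiated B list.

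In favour of non-B cells the differences were largest at Mycn, Sidt1, Phlda3 and Txndc11. Phlda3, a p53 target that restrains Akt signalling, had 7.82 in B and 20.9 in non-B cells at its start site. In the B list this region was split into separate peaks, and the other one at the start of Phlda3 had a value of 10.3. Sidt1, which encodes a transmembrane protein, had 8 and 28.8 at a site 6200 bp upstream. The other B peak nearest to Sidt1, slightly farther upstream, had a value of 12.5 and overlapped a separate non-B peak of 11.8.

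At Mycn, a proto-oncogene of the Myc family, the values were 6.58 in B and 27.85 in non-B cells, in a coding exon. In the B list this region was also split, and the other B peak under the same non-B peak had 15.74. Non-B cells had 2 further peaks in a coding exon of Mycn, with values of 18.4 and 17.9, whose nearest B peak was over 2 kb away. None of the 3 non-B peaks overlapped an irradiated B peak, and all overlapped an irradiated non-B peak, with values of 33.5 and 11.25. These sites thus lay over coding sequence and, among the irradiated lists, were found in non-B cells alone.

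**Figure D2:**
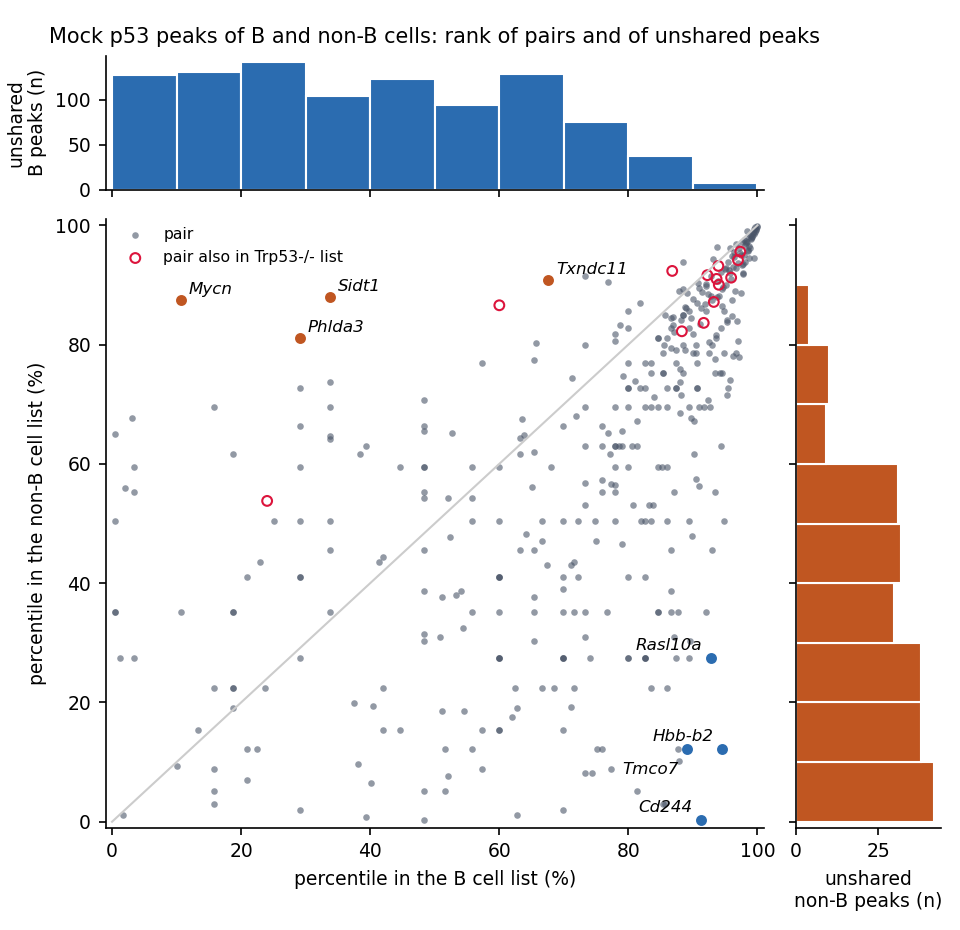
Percentile of the deposited value in the B cells mock list (horizontal) and in the non-B cells mock list (vertical) for the 431 pairs, with histograms of the percentiles of the 971 unshared B peaks (top) and the 234 unshared non-B peaks (right). Blue and orange points are the named pairs with the largest difference, and red rings also overlap a Trp53-/- peak. Pairs gather in the upper right corner, whereas unshared peaks are spread over the low and middle ranks.

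The 8 strongest unshared peaks of each list were described next. In B cells they lay nearest to Bfsp2, Fam98a, Klhdc8a, Heca, Ugt2b34, Plekhm3 and Gm9961, with values from 21.6 to 28.8. A pair of them, nearest to Fam98a, lay in an intron of Rasgrp3, which encodes an exchange factor for Ras downstream of the B cell receptor, with values of 25.6 and 24.7. The nearest non-B peak was 2602095 bp from the first of these, and both were found after irradiation with values of 47.5 (B cells) and 52.9 (non-B cells). The Plekhm3 site, in an intron, had a value of 23.0 in B cells with the nearest non-B peak 4564765 bp away, and after irradiation 148.4 in B and 120.2 in non-B cells. By contrast, Bfsp2 and Klhdc8a had a non-B peak at 117 and 63 bp, so these sites were called in both compartments at positions that did not touch.

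In non-B cells the 8 strongest unshared peaks had values from 17.7 to 25.6 and lay nearest to Pou4f1, Rpl7a-ps3, Pgk1, Glis2, Mycn, Gm9843 and 4930433N12Rik. The Rpl7a-ps3 site, whose element without mismatch is shown above, had a value of 22.5 with the nearest B peak 402399 bp away. It was among the strongest sites after irradiation, with values of 274.9 (B cells) and 506.7 (non-B cells). The peaks at Pou4f1, Glis2, Pgk1 and 4930433N12Rik were between 53 and 64 bp wide and were absent from both irradiated lists. The Pgk1 peak lay 184 bp from a B peak, and the neighbouring Pgk1 peaks of both lists overlapped a Trp53-/- peak.

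The p53 response element was more frequent under shared than under unshared peaks. Within 300 bp of the midpoint it was found in 186 of 442 shared B peaks (42.1%, 37.6 to 46.7%) and 129 of 971 unshared B peaks (13.3%, 11.3 to 15.6%). In non-B cells it was found in 205 of 478 shared peaks (42.9%, 38.5 to 47.4%) and 41 of 234 unshared peaks (17.5%, 13.2 to 22.9%). The same windows moved by 10 kb gave 1.58, 3.40, 1.88 and 3.85% in this order, and 2.69% of 22232 windows of the same length at protein-coding start sites held it. Elements farther from the midpoint of wide peaks were not counted, as at Elmo1, whose element printed below had an offset of -373 bp. An element without mismatch was found under 12.9% of shared and 2.78% of unshared B peaks, against 1 of the 22232 start site windows. The difference was also present between peaks of like value, since below 8 the share in B cells was 34.8% of shared and 10.5% of unshared peaks (22.7 to 49.2% and 7.84 to 13.9%), and in non-B cells 33.8 and 21.4% (23.5 to 46.0% and 14.01 to 31.4%), where the intervals overlapped.

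Unshared peaks instead more often held a word known from PU.1, an Ets factor that acts in B cells and myeloid cells. The intervals of unshared and shared peaks were separate in B cells and overlapped in non-B cells. GAGGAAGT, on either strand, was present under 144 of 971 unshared B peaks (14.8%, 12.7 to 17.2%) and 25 of 442 shared B peaks (5.66%, 3.86 to 8.22%). In non-B cells it was present under 26 of 234 unshared peaks (11.1%, 7.70 to 15.8%) and 28 of 478 shared peaks (5.86%, 4.08 to 8.34%). The intervals of unshared B and unshared non-B peaks overlapped each other, and at promoters their shares were 12.1 and 12%. Moved windows gave between 2.99 and 4.75%, and start site windows 4.98%, so the share under shared peaks was near the background. Below a value of 12 the B shares were 15.6% of unshared and 6.29% of shared peaks (13.3 to 18.1% and 3.45 to 11.2%). At 12 and above they were 9.48 and 5.30%, with overlapping intervals (5.38 to 16.2% and 3.24 to 8.56%). Away from promoters they were 16.05 and 7.31%, and at promoters 36 of 298 unshared and 3 of 141 shared B peaks held the word. In non-B cells the intervals overlapped below 12 (11.6 and 7.18%) and away from promoters (10.7 and 7.51%), while at promoters 9 of 75 unshared peaks (6.44 to 21.3%) and 3 of 145 shared peaks (0.706 to 5.91%) held it.

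Of the other words, CCAAT differed between the classes of B peaks. It was found under 64.5% of shared B peaks (59.9 to 68.8%) and 53.8% of unshared ones (50.6 to 56.9%), against 59.3 and 59.0% of their moved windows. In non-B cells it was found under 64.2% (59.8 to 68.4%) and 56.0% (49.6 to 62.2%), against 58.4 and 67.1% of moved windows. The GC box GGGCGG was found under 25.6, 25.7, 25.5 and 24.8% of B shared, B unshared, non-B shared and non-B unshared peaks, against 7.11 to 9.502% of moved windows and 50.3% of start site windows. The AP-1 word TGANTCA was found under 20.8, 17.7, 19.9 and 22.6% in the same order, with overlapping intervals. For the E-box CACGTG the shares lay between 7.92 and 9.40%. The share of peaks at promoters, from 5 kb upstream to 2 kb downstream of a protein-coding start site, was 31.9, 30.7, 30.3 and 32.1%, with overlapping intervals. Promoter peaks carried the element less often than other peaks, 13.7% against 26.2% in B cells and 25% against 38.8% in non-B cells.

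**Figure D3:**
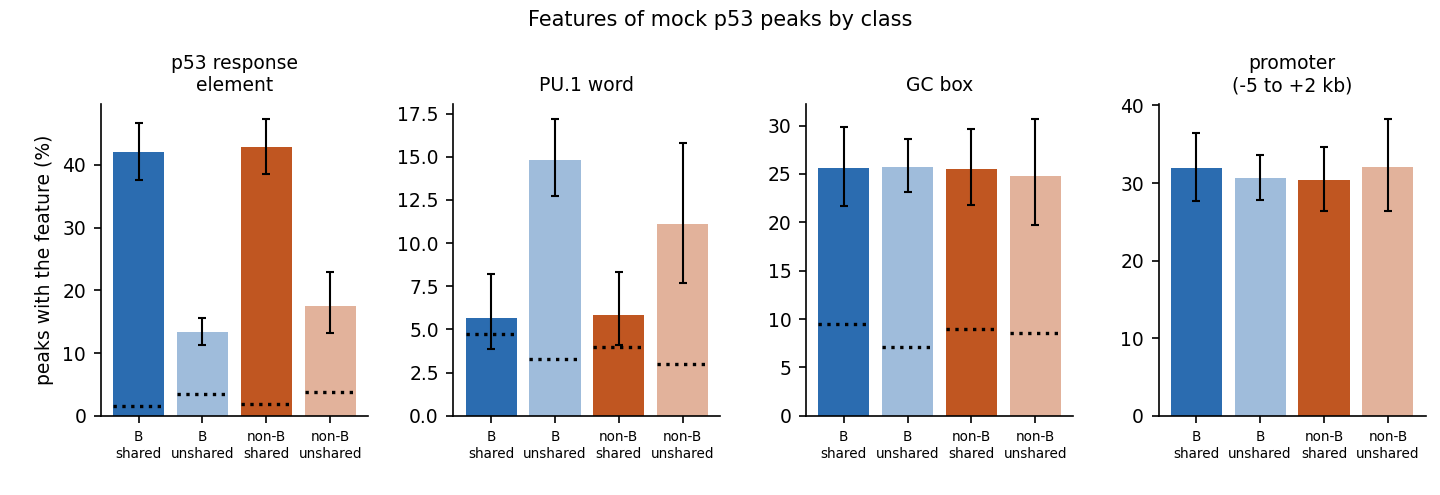
Percent of mock peaks in each class (B shared, B unshared, non-B shared, non-B unshared) with a p53 response element, with the PU.1 word, with a GC box, or at a promoter. Bars carry 95% Wilson intervals, dotted lines are the same windows moved by 10 kb (not computed for promoters), and vertical scales differ. The element is at 42.1 and 42.9% in the shared classes. The PU.1 word is at 14.8% in unshared B and 11.1% in unshared non-B peaks, with overlapping intervals.

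Some of these elements lay in a sequence that is repeated in the genome. The sites near Rhoq, Elmo1 and Klhdc8a showed closely similar letters on both sides of the element. For Elmo1 the likeness was on the complement of the plus strand. Gm9843 was similar in the element and after it, but mostly not before it. On the plus strand, Cd244 and Bfsp2 likewise resembled Elmo1 in the element and after it only. Rhoq, Klhdc8a, Gm9843 and Elmo1 are printed together so that the common stretch can be seen, and this set was chosen after the elements had been read.
Rhoq, chr17:87356322-87356381: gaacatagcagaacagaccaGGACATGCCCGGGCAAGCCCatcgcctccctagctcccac
Klhdc8a, chr1:134162383-134162442: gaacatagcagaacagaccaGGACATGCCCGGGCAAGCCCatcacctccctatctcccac
Gm9843, chr16:76643621-76643680: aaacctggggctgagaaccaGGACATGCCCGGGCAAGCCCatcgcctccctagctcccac
Elmo1, chr13:20227222-20227281: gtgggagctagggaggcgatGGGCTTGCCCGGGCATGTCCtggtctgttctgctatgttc

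The 60 bases at Rhoq occurred 307 times in the mm9 reference with at most 6 mismatches on either strand, 79 of them identical. Partial likeness, as at Gm9843, Cd244 and Bfsp2, was not counted by this rule, and its part in the shares below was not tested. A B peak lay within 300 bp of 61 copies (19.9%) and a non-B peak within 300 bp of 48 (15.6%), of which 44 had peaks of both lists, 17 of B cells alone and 4 of non-B cells alone. An irradiated peak of either compartment lay near 241 copies (78.5%), and a Trp53-/- peak near 0. These copies accounted for 64 of 442 shared B peaks (14.5%) and 33 of 971 unshared ones (3.40%), and for 65 of 478 shared (13.6%) and 8 of 234 unshared non-B peaks (3.42%). With them left out, an alternative added after seeing the data, the element was still found under 37.6% of shared and 11.4% of unshared B peaks, and under 37.8 and 15.5% of non-B peaks. Reads from identical copies cannot be assigned to 1 of them, so which copies were listed is uncertain.

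Basal peaks were then assigned to the protein-coding gene with the nearest start site. Of 22232 genes, 992 were nearest to a B peak (4.46%) and 519 to a non-B peak (2.33%). Both lists named 413 genes (1.86%), for 362 of which the peaks overlapped, B cells alone named 579 (2.6%) and non-B cells alone 106 (0.477%). This excess in B cells was small between lists of equal length. With the B list reduced to its 712 strongest peaks, the numbers were 218 for B cells alone and 192 for non-B cells alone.

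Known p53 target genes were nearest to a basal peak more often than all genes. Their lists were chosen with earlier results of these data known, so this is a description only. Of 94 such genes in 8 lists by role, 27 were nearest to a B peak and 18 to a non-B peak, against the shares of 4.46 and 2.33% over all genes. All 18 had peaks in both compartments, against 1.86% of all genes, and 9 had B peaks alone, against 2.6%. Non-B peaks alone were found for 0, against 0.477% of all genes, a share so low that the 0 says little. With the B list at equal length the count in B cells was 22, against 2.45% of all genes, and 17 were found in both.

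Of the 9 genes of negative feedback on p53, 6 had peaks in both compartments. Ccng1, which encodes cyclin G1, had a value of 27.86 in B and 27.85 in non-B cells at its start. Zmat3, which encodes an RNA-binding zinc finger protein, had 26.6 and 29.8, and Trp53inp1, which encodes a cofactor of p53, 21.5 and 47.9. In percentiles these were 92.4 and 88.4 at Zmat3, and 88.5 and 93.9 at Trp53inp1.

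Mdm2, which encodes the ubiquitin ligase that degrades p53, had its main basal peak 7035 bp upstream of the nearest annotated start, with 18.8 in B and 24.2 in non-B cells. A narrow non-B peak of 5.95 lay within the gene. Trim32 (10.3 and 8.22) and Zfp385a (12.97 and 5.81) were weaker in both, and the Zfp385a peaks of the compartments did not overlap. Mdm4, the partner of Mdm2, had a B peak alone, with a value of 9.49 over the element shown above. Ppm1d and Rchy1 had no basal peak.

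In cell cycle arrest, 4 of 16 genes had basal peaks, and each of them had them in both compartments. Cdkn1a, which encodes the cyclin-dependent kinase inhibitor p21, had a peak at its start with 41.2 in B and 44.35 in non-B cells, and another 11944 bp upstream with 22.8 and 21.5. Psrc1, a spindle protein gene, had 40.4 and 27.85, and Ckap2, a cytoskeleton-associated protein gene, 23.2 and 27.3. Btg2, an antiproliferative gene, had 9.08 and 9.32 in peaks of 85 and 58 bp.

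In apoptosis, 7 of 18 genes had B peaks and 5 had peaks in both compartments. Besides Bbc3, these were Aen, which encodes an apoptosis-enhancing nuclease, with 59.0 in B and 46.1 in non-B cells, and Bax, a pore-forming effector of mitochondrial death, with 29.1 and 51.4. The percentiles were 97.6 and 93.3 at Aen, and 93.2 and 94.3 at Bax. Bcl2l11, which encodes the BH3-only protein Bim, had 21.5 and 20.1 in an intron over the element shown above. Phlda3 was described with the pairs.

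Pmaip1, which encodes Noxa, had a B peak alone at 10.2, 11420 bp downstream of its start, and Trp53i11 had B peaks alone of 10.3 and 6.64. Apaf1, Perp, Pidd and Ei24 were among the 11 genes with no basal peak.

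Among 8 death receptor and ligand genes, Tnfsf8, which encodes the ligand of CD30, had 29.9 in B and 63.2 in non-B cells in an intron. These values stood at percentiles of 93.7 and 96.4. Fas and Eda2r had B peaks alone, of 6.30 and 7.82, near the lower end of the list.

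Repair, metabolism and growth control held fewer sites. Of 13 repair genes only Rps27l had basal peaks, with 14.96 in B and 13.7 in non-B cells at its start. Of 15 metabolic genes, Sesn2, which encodes an antioxidant stress protein, had 11.1 and 10.75, and Aldh4a1 and Slc2a1 had B peaks alone of 8.00 and 8.30.

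Of 12 genes of growth control and autophagy, 2 had B peaks alone. One was Ddit4, which encodes an inhibitor of mTOR signalling, with 8.85 at its start and 10.2 at each of 2 sites over 20 kb upstream. The genes of the p53 family itself, Trp53, Trp63 and Trp73, had no basal peak.

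**Figure D4:**
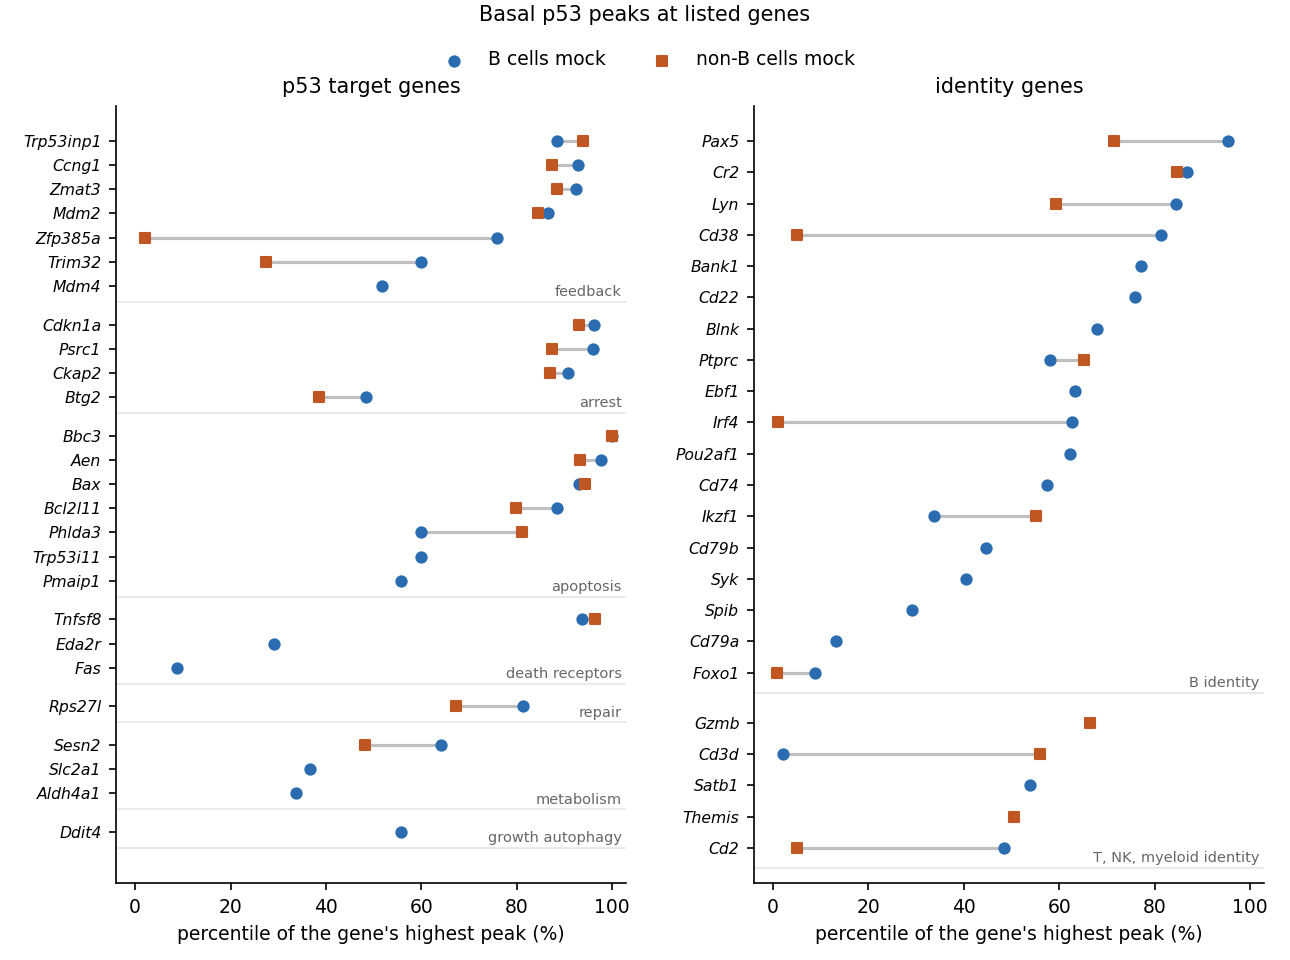
Percentile, within its own mock list, of the highest peak of each listed gene that had a basal peak, for p53 target genes by role (left) and identity genes (right). Circles are B cells, squares are non-B cells, and a missing symbol means no peak. Lines join the values of a gene found in both, whose highest peaks can lie at separate sites. Not every listed gene is drawn. No p53 target gene shown has a square without a circle, and only 0.477% of all genes had non-B peaks alone. Most B identity genes shown have a circle alone, with the B list being the longer one.

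Genes listed for B cell identity were nearest to a basal peak more often than all genes in both peak lists. Whether each listed gene is restricted to B cells was not tested. More of them were named by the longer B list. Their list, too, was chosen with earlier results of these data known. Of 28 such genes, 19 were nearest to a B peak (67.9%) and 8 to a non-B peak (28.6%), against 4.46 and 2.33% of all genes. B peaks alone were found for 11, against 2.6% of all genes. With the B list at equal length 12 were nearest to a B peak, against 2.45% of all genes, and 8 to a non-B peak. Within 10 kb of the start the counts in the full lists of unequal length were 11 and 0, against 2.33 and 1.16% of all genes. The peaks of the 8 genes named by non-B cells thus lay farther out.

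The strongest of these sites lay in an intron of Pax5, the factor that maintains B cell identity, with a value of 37.4 in B and 16.2 in non-B cells. Lyn, a kinase of the B cell receptor pathway, had 17.2 and 12.2 in an intron. Cd38, a surface enzyme, had 14.96 and 5.95 over an element with 2 mismatches. In percentiles these were 95.4 and 71.5 at Pax5, 84.6 and 59.4 at Lyn, and 81.3 and 5.13 at Cd38. For the rest of the 8 genes named by both lists, the highest peak in each list was compared. Its percentile was higher in non-B cells at Ptprc and Ikzf1, and in B cells at Cr2, Irf4 and Foxo1. At Ikzf1 and Foxo1 the peaks of the compartments did not overlap, and at Ptprc the highest peaks lay at separate sites. Over the paired peaks of all genes the median percentile was also higher in B cells (82.5 against 65.5).

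Bank1, Cd22, Blnk, Ebf1, Pou2af1, Cd74, Cd79b, Syk, Spib and Cd79a had B peaks alone. Their highest values ran from 6.64 at Cd79a to 13.4 at Bank1, where the peak lay 15 bp upstream of the start. Cd22, an inhibitory coreceptor of B cells, had 4 peaks with values from 9.05 to 12.97, at its start and about 7 kb upstream. Ebf1, a factor of early B cell development, had 3 intronic peaks of 10.9, 8.85 and 6.78.

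The B identity peaks were of middle rank and mostly without element. The 36 peaks of the B list had a median value of 9.40 (9.08 over the whole list) and a median percentile of 48.6. Of them 30 were unshared, 12 lay at promoters and 2 held a response element, against 971, 439 and 315 of all 1413 B peaks. After irradiation 34 of them were found in B and 31 in non-B cells. Of the 27 sites paired between the irradiated lists, 17 ranked higher in B cells (63.0%, 44.2 to 78.5%), against 49.5% of all irradiated pairs.

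Of 38 T, NK and myeloid identity genes, 3 were nearest to a B peak (7.89%) and 4 to a non-B peak (10.5%), against 4.46 and 2.33% of all genes. Cd3d, a subunit of the T cell receptor complex, had 5.47 in B and 11.4 in non-B cells. Themis, needed for T cell selection, had a non-B peak alone of 10.8 at 28 bp from its start, and after irradiation 10.2 in B and 44.6 in non-B cells. Gzmb, which encodes granzyme B, was nearest to a non-B peak alone of 13.5, at a site 21652 bp upstream of its start. This peak was absent from both irradiated lists. Among the others, Cd2 was named by both lists at separate sites and Satb1 by B cells alone.

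The irradiated libraries gave a readout that the overlap of the mock lists had not used. Most unshared basal sites were listed in both compartments after irradiation, 810 of 971 (83.4%, 80.95 to 85.6%) for B cells and 175 of 234 (74.8%, 68.9 to 79.9%) for non-B cells. Among unshared B peaks, 51 (5.25%, 4.02 to 6.84%) were found only in irradiated B cells and 15 (1.54%) only in irradiated non-B cells. Among unshared non-B peaks, 36 (15.4%, 11.3 to 20.6%) were found only in irradiated non-B cells and 0 only in irradiated B cells. The irradiated lists themselves held many peaks without a partner, as 24507 B and 21400 non-B peaks gave 17868 pairs. These pairs were not counted by the rule of the shares above. Whether the shares differ from those of all irradiated peaks was not tested. In neither irradiated list were 130 B peaks and 59 non-B peaks, and these rarely held an element, 2.31 and 3.39% against 24.3 and 37.4% of the peaks found again. Peaks found in neither list also lay more often in sequence with several copies of its 31-mers, 16.9 against 3.04% in B cells and 15.3 against 4.90% in non-B cells. The part of this in their absence was not tested.

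Sites with an unshared non-B peak and sites shared in mock both ranked higher in irradiated non-B cells more often than all pairs, with intervals that overlapped each other. The classes have sites in common, because an unshared peak beside a shared one can meet the same irradiated pair, as at Ccng1. Their shares and intervals are therefore not independent. Of 17868 sites paired between the irradiated lists, 49.5% ranked higher in B cells. Of 167 sites with an unshared non-B mock peak, 35 did (21.0%, 15.5 to 27.8%), with a median difference of -2.78 percentile points. Of 736 sites with an unshared B mock peak, 386 did (52.4%, 48.8 to 56.0%), an interval that includes the share over all pairs. Sites shared in mock ranked higher in B cells in 29.4% of 327 pairs (24.7 to 34.5%), with a median difference of -0.437 points.

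The shares differed with the strength of the site. Among sites with a mean percentile of 50 to 80 after irradiation, 63.2% of unshared B sites (56.4 to 69.4%, n = 209) and 22.8% of unshared non-B sites (13.8 to 35.2%, n = 57) ranked higher in B cells, against 28.6% of shared B sites (17.2 to 43.6%, n = 42) and 49.85% of all pairs in that range. Between 80 and 95 the shares were 52.4% of unshared B sites, 27.0% of unshared non-B sites and 30.9% of shared sites. At 95 and above they were 39.2% (31.8 to 47.1%), 24.4% (13.8 to 39.3%) and 26.4% (20.7 to 33.0%), against 47.0% of all pairs. Within unshared B sites, those without an element ranked higher in B cells in 55.4% (51.5 to 59.2%) and those with one in 33.6% (25.7 to 42.6%). At promoters the share was 39.5% (33.3 to 46.0%) and elsewhere 58.1% (53.8 to 62.3%). With percentiles taken over the whole irradiated lists, each mock peak found in both irradiated lists was counted, instead of each irradiated pair. The shares were then 62.5% of 810 unshared B peaks and 32.6% of 175 unshared non-B peaks, against 59.9% of all pairs. This part of the comparison was added after seeing the data.

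**Figure D5:**
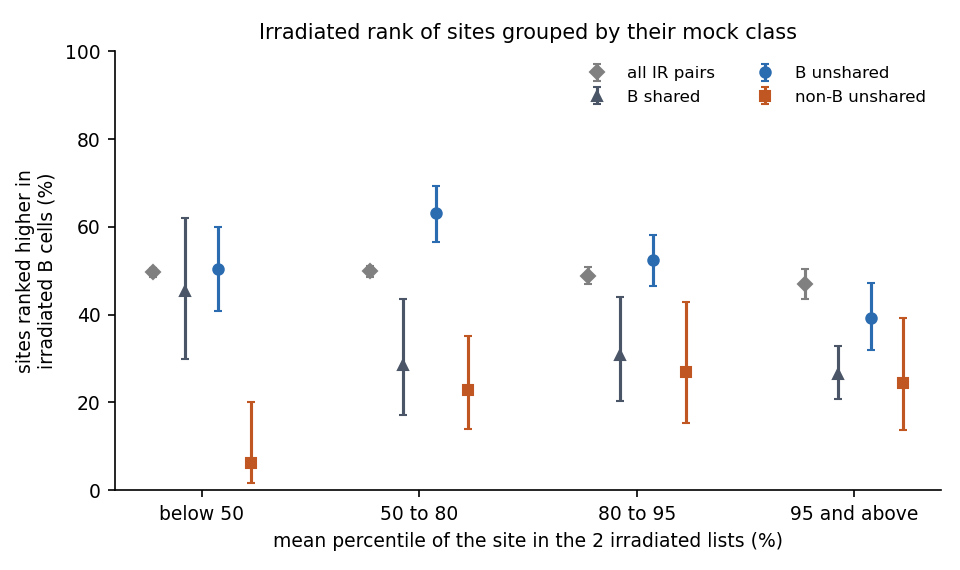
Percent of sites that ranked higher in irradiated B than in irradiated non-B cells (vertical), by the mean percentile of the site in the irradiated lists (horizontal), for all irradiated pairs (diamonds) and for sites with a shared B mock peak (triangles), an unshared B mock peak (circles) or an unshared non-B mock peak (squares). Bars are 95% Wilson intervals. Unshared non-B sites lie between 6.25 and 27.0%, and unshared B sites reach 63.2% in the range of 50 to 80.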

How the data were processed

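p53 ChIP-seq had been carried out by the study on pooled chromatin. Per the study's methods and the submitters' notes, reads were masked for low base quality and aligned to mm9 with BWA 0.6.2, SAMtools was used, and peaks were called with MACS. The authors deposited 1 list per library, each with a −log10 p-value per peak. The stated limit of 1e-08 was not seen in that column, since 31.6% of B and 20.9% of non-B mock values lay below 8. The unit was inferred from the values. The depth is unknown, and intervals cover counting error only. The input library was not used here.

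Peaks were matched by at least 1 bp, ranked by percentile (ties by mean rank), and assigned by midpoint to GENCODE vM1 (mm9, NCBIM37). All 160 listed genes matched, 156 by symbol and the rest by synonym. Coordinates count from 1. Elements, words and 31-mer copies were read from the reference. With 1 library per group no test was made.

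Named were the 15 strongest pairs, the 8 strongest unshared peaks per list, the 4 most unequal pairs per direction, and listed genes, of which some are not reported here. Members and lists were chosen with earlier results of these data known. On simulated lists of 1400 and 700 peaks, 10 of 10 quantities were recovered within 1%. Python 3.11.15, numpy 2.4.6, pandas 2.3.3, scipy 1.17.1, pysam 0.24.0, numba 0.67.0 and matplotlib 3.10.9 were used.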

Additional observations from a re-analysis of the deposited data

How the results depend on the processing

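No replicate error could be computed, since each group had 1 library, and none could be left out. No paired analysis was possible because the groups compared held a single library. Of 96 recomputed values, 58 stayed within their 95% interval, or within 1.5 times for counts, 38 moved and 0 reversed. The cause of these moves was not tested, except that shorter lists, narrower windows and stricter elements leave fewer peaks by construction. The limits are the unknown depth and the unequal list lengths.

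The shared percentages of B and non-B peaks were 38.85 and 74.7 with midpoints within 500 bp, and 51.1 and 56.2 with equal list lengths. That of B peaks was 37.3 with values of at least 8, and that of non-B peaks 62.5 with 50% overlap of the shorter peak. The gap in median percentile of shared over unshared non-B peaks was 34.5 points, 38.3 with values of at least 8 and 30.1 ranked by width. Genes in both, B alone and non-B alone numbered 195, 322 and 64 within 10 kb, and the latter pair 218 and 192 with equal list lengths. B identity genes numbered 11 in B and 0 in non-B cells within 10 kb, 5 in non-B cells with values of at least 8, and 12 in B cells with equal list lengths. T, NK and myeloid genes numbered 1 and 2 within 10 kb, and 1 in B cells with equal list lengths.

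The element shares of B shared, B unshared, non-B shared and non-B unshared peaks were 36.4, 10.5, 37.7 and 11.97% with at most 2 mismatches, and 25.1, 6.80, 24.1 and 6.84% within 100 bp. That of B unshared peaks was 15.8% with values of at least 8, and those of the shared classes 37.6 and 37.8% without the copies of the repeated element. Promoter shares within 1 kb were 21.3, 21.6, 20.1 and 24.4%, and 26.9% for B unshared peaks with values of at least 8. The irradiated ranks gave 62.5 and 32.6% with percentiles of the whole lists, counted per mock peak, against 59.9% of all pairs. The alternatives on repeated sequence, on equal list lengths for gene lists and on irradiated ranks were added after seeing the data.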
